A study of Mus musculus with 9 samples.

Results

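Cholesterol synthesis, uptake and efflux genes were followed in RNA of mouse ovary, as the 35 genes of a list drawn up by role: 8 of the mevalonate arm, 11 of the sterol arm, 5 that control SREBP, 7 of uptake, transport and storage, and 4 of LXR and efflux. The members were found by their symbols in a table of 22544 entries, and all 35 were present, 1 entry each. The tissue was profiled by sequencing of polyadenylated RNA in 9 libraries, 3 in each of 3 groups. The HBOT group received, per the design text of the series, hyperbaric oxygen therapy together with CTX, the usual abbreviation of the alkylating drug cyclophosphamide. The CTX group received the drug alone, and the NC group, whose labels name neither treatment, was the control. The sources used here give no strain, age, dose or time of sampling. The labels do not say whether a library came from 1 animal or from a pool. The p-values set differences between groups against the spread between these libraries. That spread may be technical, so the p-values may not extend to animals.

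Cholesterol is built from acetyl-CoA through mevalonate and isoprenoid diphosphates to squalene, which is closed to lanosterol and trimmed to cholesterol. When sterol in the endoplasmic reticulum is low, SCAP carries the transcription factors SREBP-1 and SREBP-2 to the Golgi for cleavage, and the released factors switch on the enzymes of synthesis, whereas INSIG proteins hold the complex back when sterol is high. Oxysterols activate the LXR receptors, which switch on the efflux pumps ABCA1 and ABCG1 and the ligase MYLIP, which marks lipoprotein receptors for degradation. In the ovary cholesterol is the precursor of the steroid hormones made in theca, granulosa and luteal cells, and in mice the oocyte, which makes little of its own, is supplied by the cumulus cells around it.

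Values are FPKM, the authors' fragments scaled for transcript length and for mapped depth, a level per length that can be compared between genes. Library sums ranged over 394046 to 420058 FPKM, and the number of reads is unknown. All 35 members reached 1 FPKM in at least 3 libraries, the condition for testing, as did 13338 entries in all. Ovarian identity was present in each library, with the granulosa transcription factor Foxl2 at 52.6 to 110 FPKM and the oocyte growth factor Gdf9 at 28.3 to 83.7 FPKM. HBOT replicate 2 stood apart: in 1637 tested genes its log2 level was over 1 unit away from what the other libraries averaged, a count of 173 to 347 for each of them, and its 7 ovulatory response genes summed to 827 FPKM against 6.12 to 23.8 FPKM elsewhere. CTX replicate 1 had the highest sum of 6 adipocyte genes, 48.3 FPKM against 9.10 to 22.0 FPKM in the other libraries. Adipoq, which encodes a hormone of fat cells, was at 5.25 FPKM in it and listed at 0 in each of the other 8. Plin1, the most abundant gene of the list, was at 23.9 FPKM in it and at 0.698 to 20.1 FPKM in the others. Retn, of the same list, was instead highest in HBOT replicate 2, at 10.2 FPKM, with CTX replicate 1 next. Both libraries matter for the members, and results that rest on them are given with and without them.

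The promoters of the members were searched for short motifs that the choice of members had not used. RefSeq promoter sequences on build GRCm38.p6, from 250 bases before to 50 bases after the start, were matched by symbol for 29 of the 35 members, with 38 promoters in all, since several genes have more than 1 start. Not matched were Fdps, Fdft1, Sqle, Npc1, Stard4 and Abcg1. Of 16 matched synthesis genes, 15 (93.8%) held CCAAT, the box bound by NF-Y, on either strand in at least 1 promoter, against 41.1% of 27025 genes in the table. The Sp1 box GGGCGG was found in 14 of the 16 (87.5%), against 38.2% of all genes. Per promoter, CCAAT was in 15 of 19 of the synthesis genes (78.9%) and GGGCGG in 15 of 19 (78.9%), against 37.4% and 35.7% of 32851 promoters. All members were expressed in these libraries, whereas the genes in the promoter table were not chosen by expression, so the shares are not matched for it. NF-Y and Sp1 are known partners of SREBP at such promoters. TCACNCCAC, the core of the classical sterol response element, was found in 1 promoter of the members, that of Hmgcs1, and in 1.24% of all promoters. Only exact matches inside this window were counted, so the lack of a match does not show that a gene has no such element. In the other roles CCAAT was in 4 of 5 matched genes of SREBP control, in 5 of 5 of uptake, transport and storage and in 0 of 3 of LXR and efflux, and GGGCGG in 5 of 5, 5 of 5 and 1 of 3. No member's promoter had a place where these motifs overlapped one another (0 of 38). The sequences below are those of the member that held the sterol response core (Hmgcs1), of the enzyme with the most CCAAT boxes (Mvk), of the member with the widest spread in CTX (Hsd17b7), of the members whose groups were best separated (Insig2, from alternative starts, and Tmem97) and of an LXR target for contrast (Abca1). Capitals mark matches to the 3 motifs, so that ATTGG is CCAAT and CCGCCC is GGGCGG on the opposite strand.
Hmgcs1, chr13:119690101-119690400, plus strand: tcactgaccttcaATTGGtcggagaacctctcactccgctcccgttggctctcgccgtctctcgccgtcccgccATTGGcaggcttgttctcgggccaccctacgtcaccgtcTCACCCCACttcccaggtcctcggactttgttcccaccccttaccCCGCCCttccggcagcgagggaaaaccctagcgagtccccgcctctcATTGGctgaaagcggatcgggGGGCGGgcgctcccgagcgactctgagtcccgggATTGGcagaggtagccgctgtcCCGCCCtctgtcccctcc
Mvk, chr5:114444019-114444318, plus strand: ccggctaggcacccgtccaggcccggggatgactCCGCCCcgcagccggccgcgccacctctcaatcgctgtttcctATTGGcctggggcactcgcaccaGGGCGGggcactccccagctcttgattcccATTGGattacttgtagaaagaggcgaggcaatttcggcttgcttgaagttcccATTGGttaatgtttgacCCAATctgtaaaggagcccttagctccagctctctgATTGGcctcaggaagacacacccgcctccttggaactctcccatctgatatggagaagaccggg
Hsd17b7, chr1:169969156-169969455, minus strand: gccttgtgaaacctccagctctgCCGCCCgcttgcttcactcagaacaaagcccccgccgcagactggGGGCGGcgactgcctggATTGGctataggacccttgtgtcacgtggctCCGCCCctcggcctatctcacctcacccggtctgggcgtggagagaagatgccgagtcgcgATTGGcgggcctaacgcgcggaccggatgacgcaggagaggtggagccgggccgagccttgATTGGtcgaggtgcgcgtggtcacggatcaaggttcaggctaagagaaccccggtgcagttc
Insig2, chr1:121332540-121332839, minus strand: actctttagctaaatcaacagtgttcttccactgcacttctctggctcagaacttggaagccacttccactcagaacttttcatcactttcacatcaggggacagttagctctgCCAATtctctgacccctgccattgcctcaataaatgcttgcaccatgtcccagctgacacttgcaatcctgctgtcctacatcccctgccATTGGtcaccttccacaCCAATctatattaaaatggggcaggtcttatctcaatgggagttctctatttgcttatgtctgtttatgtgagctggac
Insig2, chr1:121327629-121327928, minus strand: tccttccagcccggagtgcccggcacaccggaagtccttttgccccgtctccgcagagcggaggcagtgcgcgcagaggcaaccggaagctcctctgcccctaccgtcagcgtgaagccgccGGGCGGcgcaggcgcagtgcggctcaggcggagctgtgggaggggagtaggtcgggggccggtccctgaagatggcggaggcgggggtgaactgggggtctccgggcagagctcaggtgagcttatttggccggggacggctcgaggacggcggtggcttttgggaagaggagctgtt
Tmem97, chr11:78550686-78550985, minus strand: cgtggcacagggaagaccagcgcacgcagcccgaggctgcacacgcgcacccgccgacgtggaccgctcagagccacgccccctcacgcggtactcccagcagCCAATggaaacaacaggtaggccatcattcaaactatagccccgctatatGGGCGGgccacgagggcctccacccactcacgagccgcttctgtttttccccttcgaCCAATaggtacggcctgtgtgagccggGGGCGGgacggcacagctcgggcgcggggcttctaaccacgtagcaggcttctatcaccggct
Abca1, chr4:53159846-53160145, minus strand: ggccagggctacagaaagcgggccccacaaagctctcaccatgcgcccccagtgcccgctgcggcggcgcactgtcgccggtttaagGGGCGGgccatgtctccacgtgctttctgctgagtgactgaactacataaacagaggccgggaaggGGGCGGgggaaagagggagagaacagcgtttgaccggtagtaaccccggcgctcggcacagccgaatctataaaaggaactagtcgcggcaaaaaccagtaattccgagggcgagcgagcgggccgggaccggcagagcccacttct
A match describes the letters in this window and does not show that a factor binds there. Of the 3 starts of Insig2, the one furthest upstream had 3 CCAAT boxes and no Sp1 box, and the one furthest downstream had no CCAAT box and 1 Sp1 box. The deposited table gives 1 value for Insig2 and does not separate its starts.

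Most synthesis genes varied together from library to library within CTX and within NC, and less uniformly within HBOT. Most of the variation of the synthesis genes lay inside the groups, as it also did over all tested genes. Hmgcs1, which makes the HMG-CoA that feeds mevalonate, was at 92.3, 189 and 132 FPKM in HBOT replicates 1 to 3, at 38.5, 313 and 293 FPKM in CTX replicates 1 to 3 and at 183, 303 and 83.9 FPKM in NC replicates 1 to 3. The lowest of these 9 values and the highest are both CTX libraries. Hsd17b7, a reductase of the sterol arm that in mice also acts on estrone in luteal cells, was at 23.6, 36.9 and 16.0 FPKM in HBOT, at 8.13, 69.1 and 320 FPKM in CTX and at 101, 85.3 and 11.6 FPKM in NC. Its CTX libraries spanned a 39.3-fold range, wider than that of any other member, and enclosed all HBOT and NC libraries. In bulk tissue, fewer cells of a type and less RNA per cell cannot be told apart.

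**Figure D1:**
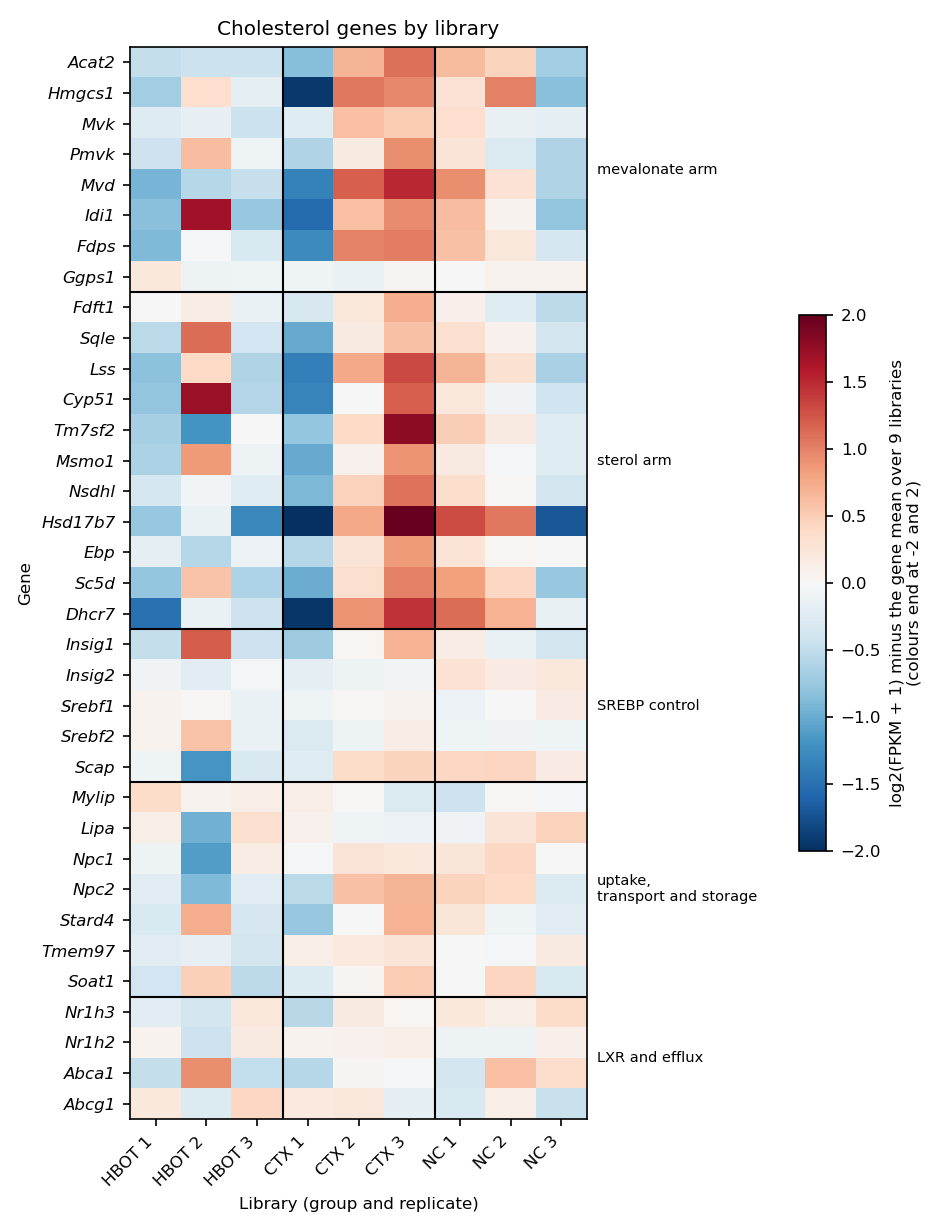
Colours give log2(FPKM + 1) minus the gene's mean over 9 libraries for each of the 35 members (rows, by role) in each library (columns, HBOT left, then CTX, then NC). The synthesis genes are mostly blue in CTX replicate 1 and mostly red in CTX replicate 3, while Ggps1 and Srebf1 differ little anywhere.

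Of the 19 synthesis genes, 14 had their lowest value of all 9 libraries in CTX replicate 1 (73.7%, against 6.40% of all tested genes) and 13 their highest in CTX replicate 3 (68.4%, against 8.61%). Within CTX, replicate 1 was the lowest for 18 of 19 synthesis genes (against 27.9% of all tested genes) and replicate 3 the highest for 17 of 19 (22.6%). Within NC, replicate 3 was the lowest for 18 of 19 (31.5% of all tested genes) and replicate 1 the highest for 17 of 19 (24.3%). Within HBOT, replicate 1 was the lowest for 13 of 19 (15.1% of all tested genes) and replicate 2 the highest for 14 of 19 (28.7%). These are descriptions of libraries in which many of the genes move together, so that the genes do not count as independent observations.

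The ratio of the highest to the lowest library within a group measures how far replicates differed. For the synthesis genes its median was 2.16 in HBOT, 4.14 in CTX and 1.91 in NC, against 1.51, 1.27 and 1.21 over all tested genes in the same order of groups. In CTX, 15 of 19 synthesis genes (78.9%) differed by more than 3-fold between replicates, against 4.70% of all tested genes with a value above 0 in each CTX library. Of the variance of log2(FPKM + 1) over the 9 libraries, a median of 88.8% lay within groups for the synthesis genes, against 71.2% over all tested genes. Taken as summed level, the 19 genes made up 0.162%, 0.342% and 0.197% of all FPKM in HBOT replicates 1 to 3, 0.110%, 0.415% and 0.580% in CTX and 0.378%, 0.345% and 0.188% in NC.

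In the mevalonate arm 6 of 8 genes differed by more than 3-fold between CTX libraries, all but Mvk and Ggps1. Idi1, which isomerizes isopentenyl diphosphate, was at 18.5, 111 and 19.7 FPKM in HBOT, at 10.98, 52.3 and 66.5 FPKM in CTX and at 52.9, 35.6 and 19.2 FPKM in NC. HBOT replicate 2 was thus the highest library for Idi1, 5.99-fold above the lowest HBOT library. Fdps, which builds farnesyl diphosphate, was the most abundant gene of the arm, at 91.1 to 453 FPKM over the 9 libraries. Mvd, the decarboxylase that ends the mevalonate route, was at 9.94 to 78.4 FPKM, and Acat2, the cytosolic thiolase that condenses acetyl-CoA, at 25.4 to 102 FPKM. Mvk and Pmvk, the kinases that phosphorylate mevalonate, were at 17.0 to 35.5 and 8.35 to 26.2 FPKM. Ggps1, which makes geranylgeranyl diphosphate for protein prenylation rather than sterol, was at 9.46 to 12.4 FPKM, a 1.31-fold range over all 9 libraries.

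In the sterol arm, Sqle and Cyp51 stood out by their level in HBOT replicate 2. Sqle, the epoxidase that oxygenates squalene, was at 31.9, 102 and 35.6 FPKM in HBOT, at 22.7, 53.0 and 70.2 FPKM in CTX and at 58.6, 49.8 and 35.9 FPKM in NC. Cyp51, which removes a methyl group of lanosterol, was at 22.9, 135 and 26.5 FPKM in HBOT, at 15.4, 40.5 and 93.4 FPKM in CTX and at 47.0, 38.2 and 30.2 FPKM in NC. For both genes the other HBOT libraries lay below all NC libraries, though for Sqle HBOT replicate 3 (35.6 FPKM) nearly equalled NC replicate 3 (35.9 FPKM). With HBOT replicate 2 counted, the HBOT and NC groups overlapped for both genes. Tm7sf2, a sterol reductase that acts 1 step after Cyp51, was lowest in HBOT replicate 2: it was at 13.5, 9.05 and 22.2 FPKM in HBOT, at 12.5, 29.5 and 79.1 FPKM in CTX and at 31.4, 25.1 and 18.6 FPKM in NC. Dhcr7, the reductase of the last double bond to be removed from 7-dehydrocholesterol, ranged from 19.4 to 212 FPKM. Msmo1, a sterol methyl oxidase, was at 55.2 to 209 FPKM, Sc5d, a desaturase, at 20.5 to 84.8 FPKM, and Nsdhl, which works with Msmo1 on the same methyl groups, at 17.96 to 73.5 FPKM. The squalene synthase Fdft1 (37.0 to 88.7 FPKM), the cyclase Lss (6.63 to 47.9 FPKM) and the isomerase Ebp (17.5 to 48.9 FPKM) completed the arm.

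**Figure D2:**
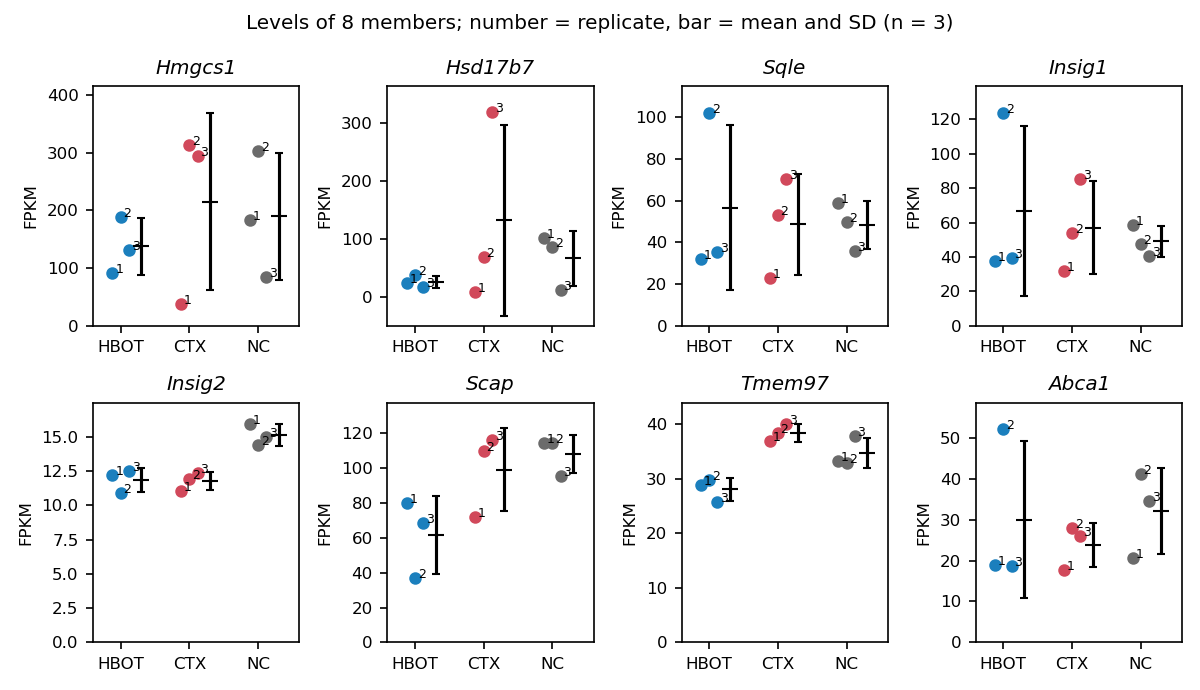
FPKM of 8 members in each library (points, numbered by replicate) for HBOT, CTX and NC, with the group mean and SD beside the points (n = 3). Hmgcs1, Hsd17b7, Sqle and Insig1 overlap between groups with 1 library far from the others in CTX or HBOT, while Insig2 is lower in all 6 HBOT and CTX libraries than in any NC library.

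Among the genes that control SREBP, Insig1 varied most and Srebf1 least. Insig1, a target of SREBP, was at 37.5, 124 and 39.3 FPKM in HBOT, at 31.8, 54.2 and 85.4 FPKM in CTX and at 58.5, 47.7 and 40.8 FPKM in NC. It was lowest in CTX replicate 1 and highest in HBOT replicate 2, as were Idi1, Sqle and Cyp51. Srebf2, the factor with most weight on cholesterol genes, was at 44.1, 62.5 and 38.0 FPKM in HBOT, at 34.2, 39.0 and 46.6 FPKM in CTX and at 39.5, 39.9 and 39.5 FPKM in NC. Srebf1, whose products favour fatty acid genes, was at 26.1, 25.4 and 22.6 FPKM in HBOT, at 23.5, 25.3 and 26.0 FPKM in CTX and at 22.8, 24.7 and 28.1 FPKM in NC. The range of Srebf1 over the 9 libraries was 1.24-fold and that of Srebf2 1.83-fold.

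Among transport and storage genes, Stard4, a carrier of cholesterol between membranes and a target of SREBP-2, was at 8.41, 18.3 and 8.18 FPKM in HBOT, at 5.85, 10.6 and 17.7 FPKM in CTX and at 12.8, 9.96 and 8.98 FPKM in NC. Its lowest and highest libraries were the same as for Insig1. Soat1, which esterifies cholesterol for storage in droplets, was the most abundant gene of this role, at 115, 210 and 104 FPKM in HBOT, at 125, 156 and 216 FPKM in CTX and at 151, 204 and 122 FPKM in NC. Its groups overlapped throughout. Lipa, the lysosomal lipase that frees cholesterol from ester, was at 22.3, 10.0 and 25.8 FPKM in HBOT, at 21.7, 19.3 and 18.8 FPKM in CTX and at 19.5, 24.6 and 28.5 FPKM in NC.

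Of the efflux pumps, Abca1, which loads cholesterol onto apolipoproteins, was at 19, 52.2 and 18.8 FPKM in HBOT, at 17.7, 27.9 and 26.0 FPKM in CTX and at 20.7, 41.2 and 34.6 FPKM in NC. HBOT replicate 2 was the highest library and the other HBOT libraries lay below all NC libraries, so that the HBOT and NC groups overlapped. Abcg1, which passes cholesterol to lipoprotein particles, was low, at 3.54, 2.24 and 4.21 FPKM in HBOT, at 3.46, 3.58 and 2.47 FPKM in CTX and at 2.17, 3.28 and 1.88 FPKM in NC. Of the receptors, Nr1h2 (LXR-beta) was at 41.8 to 64.2 FPKM and Nr1h3 (LXR-alpha) at 2.77 to 6.12 FPKM, so that each Nr1h2 value exceeded each Nr1h3 value.

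HBOT replicate 2 was the highest of the 9 libraries for 7 members (Idi1, Sqle, Cyp51, Insig1, Srebf2, Stard4 and Abca1) and the lowest for 8 (Tm7sf2, Ebp, Insig2, Scap, Lipa, Npc1, Npc2 and Nr1h2). As shares of 35 members these are 20% and 22.9%, against 19.5% and 44.1% of all tested genes. The part of the ovulatory response genes in this pattern was not tested.

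CTX was set against NC to see which members the drug moved. Insig2, the form of INSIG that is not a known SREBP target, was the member with the smallest p and was lower in CTX: it was at 11.1, 11.9 and 12.4 FPKM in CTX against 15.9, 14.4 and 15.01 FPKM in NC, and the groups did not overlap. The log2 fold change is a difference of log2(FPKM + 1), which understates the change of low genes, and calls were made at an adjusted p under 0.05. For Insig2 it was -0.33 (SE 0.10, adjusted p = 0.447 by limma), so it was not called. The squalene synthase Fdft1 averaged 64.7 ± 23.1 FPKM in CTX and 46.5 ± 10.3 FPKM in NC (SD, n = 3 each). Its libraries were at 53.5, 59.4 and 48.8 FPKM in HBOT, at 42.5, 62.9 and 88.7 FPKM in CTX and at 57.4, 44.96 and 37.0 FPKM in NC, and the CTX and NC groups overlapped. The synthesis genes had a median log2 fold change of 0.09 against 0.05 over all tested genes.

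None of the 35 members was called by limma in CTX against NC, and neither was any other gene (0 of 13338, 0%). At an unadjusted p under 0.05 there were 1065 genes (7.98%), of which 1 was a member, Insig2. The median log2 fold change was 0.13 for the mevalonate arm, 0.08 for the sterol arm, -0.01 for SREBP control, 0.05 for uptake, transport and storage and -0.11 for LXR and efflux. Groups did not overlap for 0 members higher in CTX, where 13.2% of all tested genes were, and for 1 lower, where 7.8% were. The 6 members with the smallest p were completed by Fdft1 (log2 fold change 0.43, SE 0.26), Nr1h3 (-0.34, SE 0.22), Tmem97 (0.15, SE 0.10), Abcg1 (0.29, SE 0.23) and Mvk (0.28, SE 0.24), with adjusted p of 0.756 to 0.861 by limma. Nr1h3 averaged 4.23 ± 1.30 FPKM in CTX and 5.505 ± 0.562 FPKM in NC (SD, n = 3 each), with libraries at 3.77, 3.29 and 5.46 FPKM in HBOT, at 2.77, 5.26 and 4.68 FPKM in CTX and at 5.38, 5.02 and 6.12 FPKM in NC. Mvk averaged 29.3 ± 8.74 FPKM in CTX and 23.5 ± 5.28 FPKM in NC, and its NC libraries were at 29.6, 20.9 and 20.0 FPKM.

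This comparison turned on single libraries of CTX and of NC. The median of the synthesis genes was 0.76 without CTX replicate 1 and -0.33 without CTX replicate 3, and it was -0.16 without NC replicate 3. Among the members, 5 were higher at an unadjusted p under 0.05 without CTX replicate 1, where 3.41% of all tested genes were. Without CTX replicate 1 and HBOT replicate 2 together 8 members were, against 7.55%. CTX replicate 1 was the lowest CTX library for 31 of the 35 members, so leaving it out raises their CTX means. These counts therefore depend on which library is left out. Fdft1 stood at 0.70 when CTX replicate 1 was left out and at 0.17 when CTX replicate 3 was, Mvk stood at 0.55 without CTX replicate 1 but at 0.13 when CTX replicate 2 was omitted, and Nr1h3 at -0.12 without CTX replicate 1. Abcg1 stood at 0.45 without NC replicate 2 and at 0.17 without NC replicate 3. Adipocyte genes summed to 48.3, 9.10 and 20.8 FPKM in CTX replicates 1 to 3, against 10.1 to 16.45 FPKM in NC. Plin1 led that list, at 23.9, 6.86 and 19.7 FPKM in CTX and 8.98 to 14.4 FPKM in NC. Adipoq, Cidec and Lep were listed at 0 in CTX replicates 2 and 3. The 8 genes of steroid hormone synthesis summed to 5063, 7206 and 10480 FPKM in CTX, against 7411 to 10470 FPKM in NC. The part of both lists in the result was not tested.

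**Figure D3:**
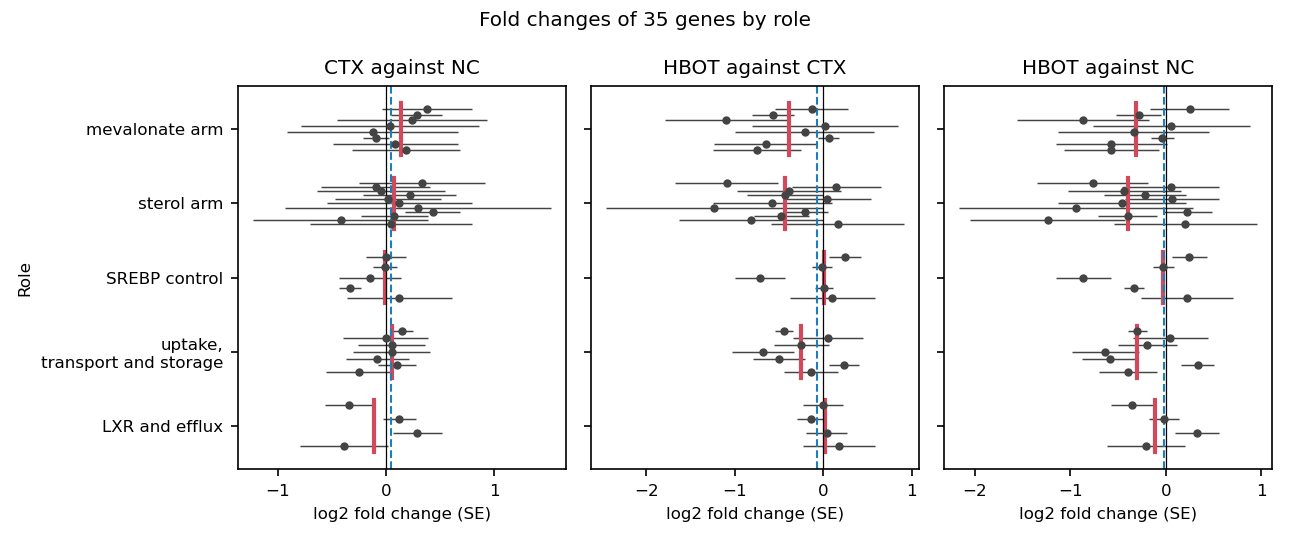
Log2 fold changes of the 35 members (points, with the SE of the fit as bars) by role in 3 comparisons, CTX with NC, HBOT with CTX and HBOT with NC. Red strokes are medians of a role and the dashed blue line is the median of all tested genes. In HBOT against CTX the medians of the mevalonate and sterol arms lie at -0.39 and -0.43, left of the median of all genes at -0.07.

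HBOT was set against CTX to see how the members stood once oxygen was given with the drug. Tmem97, a sterol-responsive membrane protein that binds NPC1, was lower in HBOT: it was at 28.7, 29.7 and 25.7 FPKM in HBOT against 36.8, 38.3 and 39.96 FPKM in CTX, and the groups did not overlap. Its log2 fold change was -0.44 (SE 0.10, unadjusted p = 0.00203, adjusted p = 0.71 by limma), so it was not called. Scap, the escort of SREBP, was at 79.9, 36.9 and 68.3 FPKM in HBOT against 71.8, 110 and 116 FPKM in CTX. The HBOT and CTX libraries of Scap overlapped through HBOT replicate 1 and CTX replicate 1. Mvk was at 19.1, 20.6 and 17.0 FPKM in HBOT against 19.3, 35.5 and 33.2 FPKM in CTX, with CTX replicate 1 inside the HBOT range.

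Calls by limma numbered 0 among the 35 members in HBOT against CTX and 0 among all 13338 genes (0%). At an unadjusted p under 0.05, 3 members were lower in HBOT (Tmem97, Scap and Mvk), against 490 genes lower (3.67%), and 0 members were higher, against 322 genes (2.41%). In both directions together 6.09% of all tested genes were past it. Scap had a log2 fold change of -0.72 (SE 0.29) and Mvk of -0.57 (SE 0.24), each with an adjusted p of 0.71 by limma. Next were the carriers that take cholesterol out of lysosomes, Npc2 (-0.68, SE 0.35) and Npc1 (-0.50, SE 0.29), and Tm7sf2 (-1.09, SE 0.58). Npc2 was at 58.6, 36.1 and 58.1 FPKM in HBOT against 46.4, 103 and 109 FPKM in CTX. Npc1 was at 26.0, 12.2 and 30.8 FPKM in HBOT against 26.9, 33.4 and 32.3 FPKM in CTX. In both carriers HBOT replicate 2 was the lowest library.

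By role, 14 of 19 synthesis genes had a negative log2 fold change (median -0.43, range -1.23 to 0.16), where 8214 of 13338 genes did (median -0.07). The median was 0.01 for SREBP control, -0.25 for uptake, transport and storage and 0.02 for LXR and efflux. Groups did not overlap for 1 member lower in HBOT, where 6.44% of all tested genes were, and for 0 higher, where 3.76% were. The synthesis median was -0.94 without CTX replicate 1, -0.64 without HBOT replicate 2 and -1.34 without both, and -0.001 without CTX replicate 3. At an unadjusted p under 0.05, 2 members were lower without HBOT replicate 2 (2.17% of all tested genes), 14 without CTX replicate 1 (5.09%) and 24 without both (5.5%), and 0 members passed the adjusted threshold in limma. That fit holds 2 libraries of HBOT and 2 of CTX. CTX replicate 1, which it leaves out, was the lowest CTX library for 31 of the 35 members, against 27.9% of all tested genes. HBOT replicate 2, also left out, was the highest HBOT library for 20 of the 35 members, against 28.7% of all tested genes. It was the lowest for 12 of them, against 58.7%. The count of 24 therefore depends on which libraries are left out. Npc1 stood at -0.12 and Scap at -0.39 without HBOT replicate 2, Tm7sf2 at -0.43 when CTX replicate 3 was left out and at -1.72 when CTX replicate 1 was, and Npc2 at -1.07 without CTX replicate 1.

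The comparison of HBOT with NC sets the combined treatment against the control. Insig2 was at 12.2, 10.9 and 12.5 FPKM in HBOT against 15.9, 14.4 and 15.01 FPKM in NC, with a log2 fold change of -0.33 (SE 0.10). Its HBOT libraries lay at the level of the CTX libraries, and since both comparisons use the same NC libraries they are not independent. Scap, at 79.9, 36.9 and 68.3 FPKM in HBOT against 114, 114 and 95.3 FPKM in NC, did not overlap either (-0.86, SE 0.29). Tmem97 was at 28.7, 29.7 and 25.7 FPKM in HBOT against 33.2, 32.9 and 37.9 FPKM in NC (-0.30, SE 0.10). Mylip, the LXR-induced ligase, was higher, at 8.12, 6.41 and 6.75 FPKM in HBOT against 4.29, 6.196 and 5.88 FPKM in NC (0.33, SE 0.17). None of the 4 was called.

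Here too limma called 0 members and 0 of 13338 genes (0%), and the adjusted p by limma was 0.332 for Insig2, 0.342 for Scap, 0.354 for Tmem97 and 0.473 for Mylip. At an unadjusted p under 0.05 there were 1584 genes (11.9%), and 3 members were lower in HBOT (Insig2, Scap and Tmem97), against 5.65% of all tested genes, and 0 were higher, against 6.22%. Groups did not overlap for 4 members lower in HBOT (Insig2, Scap, Tmem97 and Ebp), where 9.6% of all tested genes were, and for 1 higher, Mylip, where 10.9% were. Npc1 (-0.58, SE 0.29) and Npc2 (-0.63, SE 0.35) followed, with adjusted p of 0.465 and 0.493 by limma. The NC libraries were at 33.0, 37.5 and 27.8 FPKM for Npc1 and at 93.1, 89.5 and 56.1 FPKM for Npc2. The synthesis genes had a median log2 fold change of -0.34, with 13 of 19 negative, against -0.02 over all tested genes. Without HBOT replicate 2 that median was -0.58, Scap stood at -0.54, Npc1 at -0.20 and Npc2 at -0.41. Without NC replicate 1 the synthesis median was -0.11 and Mylip stood at 0.20.

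Other genes of the pathway were taken from 5 lists of 51 genes, and 0 of them were called in any comparison by limma. With library weights 181 tested genes were called in HBOT against NC, among them Me1 and Cyp27a1 (adjusted p = 0.0467 and 0.0306 by limma). That setting gave HBOT replicate 2 a weight of 0.0998, where the other libraries had 0.5775 to 2.4. Cyp27a1 was at 5.82 FPKM in HBOT replicate 2 and at 15.2 and 16.5 FPKM in the other HBOT libraries. Its NC libraries were at 6.01 to 7.84 FPKM. Of 11 genes of fatty acid synthesis under SREBP, 1 was higher in CTX than in NC at an unadjusted p under 0.05 (5.24% of all tested genes) and 0 were lower (2.74%). That gene was the fatty acid synthase Fasn, at 42.6, 41.7 and 46.3 FPKM in CTX against 33.0, 33.4 and 28.2 FPKM in NC (log2 fold change 0.46, SE 0.11). The elongase Elovl6 was at 31.3, 29.4 and 34.7 FPKM in CTX against 27.5, 25.3 and 18.02 FPKM in NC. In HBOT against CTX the log2 fold change was positive for 2 of the 11 and negative for 9. At an unadjusted p under 0.05, 1 gene of this list was higher, the carboxylase Acaca (0.85, SE 0.32), where 2.41% of all tested genes were, and 1 was lower, the desaturase Scd2 (-0.52, SE 0.20), where 3.67% were. Without CTX replicate 3 Acaca stood at 0.57. In HBOT against NC 2 of the 11 were higher at an unadjusted p under 0.05 (6.22% of all tested genes) and 2 were lower (5.65%), with the malic enzyme Me1 at 177, 198 and 277 FPKM in HBOT against 530, 547 and 484 FPKM in NC (-1.28, SE 0.33) and the desaturase Fads2 at 169, 105 and 113 FPKM in HBOT against 81.4, 69.9 and 70.4 FPKM in NC (0.77, SE 0.28). The acetyl-CoA synthetase Acss2, chosen after its values were seen, was at 4.31, 3.28 and 8.04 FPKM in HBOT, at 4.84, 14.3 and 25.6 FPKM in CTX and at 16.8, 14.3 and 8.67 FPKM in NC.

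Of 10 genes of SREBP processing and sterol-regulated degradation, 0 were called or had an unadjusted p under 0.05 in CTX against NC or HBOT against CTX, and 2 were lower in HBOT than in NC at an unadjusted p under 0.05, where 5.65% of all tested genes were. Among them was Mbtps2, the intramembrane protease that releases SREBP, at 9.14, 6.82 and 7.91 FPKM in HBOT against 10.5, 11.1 and 9.85 FPKM in NC (-0.37, SE 0.13), and its groups did not overlap. In CTX against NC Mbtps2 gave -0.26 (SE 0.13), and both comparisons use the same NC libraries. In HBOT against CTX Erlin2, which acts in sterol-driven degradation, gave -0.17 (SE 0.18). Of 11 genes of isoprenoid branches, Coq2, which joins the isoprenoid tail to the ubiquinone ring, was at 32.0, 26.7 and 30.4 FPKM in HBOT against 44.7, 40.2 and 37.6 FPKM in CTX (-0.45, SE 0.13), and it was the 1 gene of the 11 lower at an unadjusted p under 0.05, where 3.67% of all tested genes were. It was at 37.8, 30.2 and 30.9 FPKM in NC, and it was the gene of this list higher in CTX than in NC at an unadjusted p under 0.05 (0.31, SE 0.13), where 5.24% of all tested genes were. In HBOT against NC 1 of the 11 was higher at an unadjusted p under 0.05, where 6.22% of all tested genes were, the prenyltransferase subunit Rabggta (0.37, SE 0.15), which stood at 0.23 without HBOT replicate 2. Next by p were the farnesyltransferase subunits Fntb in CTX against NC (0.22, SE 0.17) and Fnta in HBOT against CTX (-0.23, SE 0.17) and against NC (-0.35, SE 0.17). Without HBOT replicate 2 Fnta stood at -0.02 and at -0.15 in the same order, and without CTX replicate 1 Fntb stood at 0.03.

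Of 14 other genes of sterol uptake, transfer and oxysterols, 1 was lower in CTX than in NC at an unadjusted p under 0.05, the carrier Stard5 (-0.70, SE 0.31), and 0 were higher, where 2.74% and 5.24% of all tested genes were, with the sterol transfer gene Gramd1a next (0.28, SE 0.13). None passed in HBOT against CTX (0 of 14), where Gramd1a (-0.27, SE 0.13) and Nceh1 (-0.69, SE 0.36) had the smallest p. The ester hydrolase Nceh1, at 13.4, 4.26 and 14.8 FPKM in HBOT against 20.0, 19.02 and 18.3 FPKM in NC, was the 1 gene of the 14 lower in HBOT against NC at an unadjusted p under 0.05 (-0.92, SE 0.36), where 5.65% of all tested genes were. HBOT replicate 2 was its lowest library, and without it Nceh1 stood at -0.41 against NC and at -0.18 against CTX. The sterol hydroxylase Cyp27a1 was next (0.63, SE 0.33), at 1.07 without HBOT replicate 2 and at 0.39 without HBOT replicate 3. Of 5 LXR partners and lipid targets, 0 had an unadjusted p under 0.05 in any comparison. Ncor1, a corepressor, was at 26.5, 23.5 and 26.3 FPKM in HBOT against 28.2, 30.6 and 27.1 FPKM in NC (-0.16, SE 0.10), and against CTX it gave -0.09. The others named by the rule were the phospholipid enzyme Lpcat3 (-0.34, SE 0.32 in CTX against NC; -0.34, SE 0.32 in HBOT against NC), and the LXR partners Rxra (0.19, SE 0.23 in CTX against NC) and Rxrb (-0.20, SE 0.18 in HBOT against CTX).

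Marker genes of the cells that use cholesterol also varied between libraries. Steroid hormone synthesis genes, led by Hsd3b1, summed to 5896, 6969 and 7221 FPKM in HBOT, to 5063, 7206 and 10480 FPKM in CTX and to 10470, 9325 and 7411 FPKM in NC. In CTX and in NC the library with the lowest sum was also the one where 18 of 19 synthesis genes were lowest in their group. In HBOT, replicate 1 had the lowest sum of steroid hormone genes and also the lowest synthesis sum, 648 FPKM. Replicate 2 had the highest synthesis sum of the group, 1376 FPKM, without the highest sum of steroid hormone genes. Of that list, Star (1876.5 FPKM) and Fdx1 (1343 FPKM) were at their highest of all libraries in HBOT replicate 2. Hsd3b1 (991 FPKM), Fdxr (101 FPKM) and Hsd17b1 (75.0 FPKM) were at their lowest there. Corpus luteum genes, led by Akr1c18, summed to 355, 519 and 3070 FPKM in HBOT, to 400, 343 and 471 FPKM in CTX and to 2839, 2787 and 2342 FPKM in NC. Akr1c18, which breaks down progesterone, was at 194, 418 and 2848 FPKM in HBOT, at 289, 125 and 153 FPKM in CTX and at 2509, 2464 and 2127 FPKM in NC. The luteinizing hormone receptor Lhcgr, of the same list, was at 73.5, 37.3 and 61.3 FPKM in HBOT, at 64.9, 112 and 178 FPKM in CTX and at 107, 125 and 25.4 FPKM in NC. Theca genes, led by Aldh1a1, summed to 967 to 1201 FPKM in HBOT, to 527 to 1019 FPKM in CTX and to 579 to 778 FPKM in NC. Cyp17a1, which is also on the steroid hormone list, was at 283 to 698 FPKM in HBOT and at 29.0 to 119 FPKM in NC. The other theca genes overlapped between HBOT and NC. They were Aldh1a1 (248 to 879 and 457 to 650 FPKM), Insl3 (23.0 to 29.3 and 15.4 to 41.8 FPKM) and Ptch1 (8.11 to 21.3 and 17.0 to 22.4 FPKM). Granulosa genes summed to 1754 to 2334 FPKM in HBOT, to 1467 to 2418 FPKM in CTX and to 1373 to 1959 FPKM in NC. Inha led this list, at 1323 to 1703 FPKM in HBOT, 996 to 1771 FPKM in CTX and 1002 to 1524 FPKM in NC. In HBOT against CTX the log2 fold change was positive for 3 of the 7 granulosa genes and negative for 4. For oocyte genes the sums were 253.5 to 287 FPKM in HBOT, 171 to 270 FPKM in CTX and 111 to 159 FPKM in NC, and for macrophage genes 118.5 to 184, 121 to 163 and 94.8 to 105 FPKM in the same groups. Their part in the levels of the members was not tested.

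**Figure D4:**
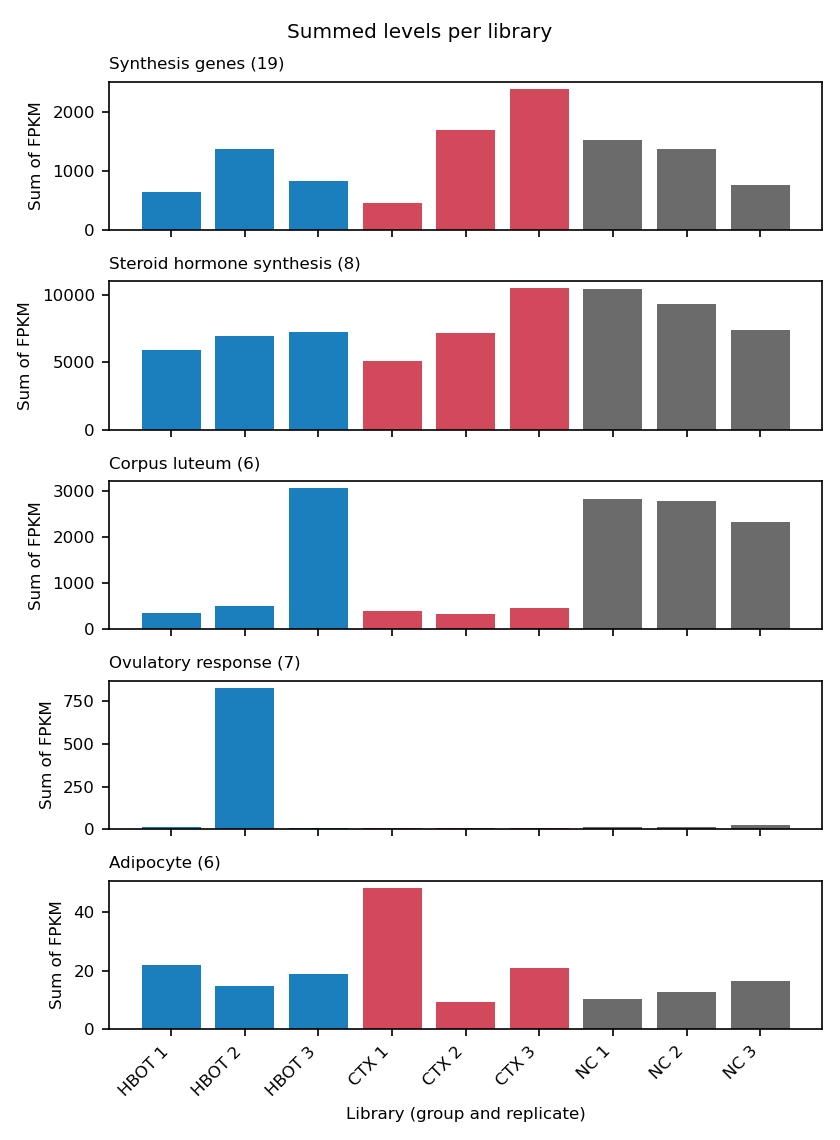
Summed FPKM in each library (bars, from 0; HBOT left, then CTX, then NC) of the 19 synthesis genes and of marker lists for steroid hormone synthesis, corpus luteum, ovulatory response and adipocytes. The synthesis sum is lowest in CTX replicate 1 (452 FPKM) and highest in CTX replicate 3 (2391 FPKM), the ovulatory sum stands out in HBOT replicate 2 and the adipocyte sum in CTX replicate 1.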

How the data were processed

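Ovary RNA was isolated with TRIzol, enriched for mRNA on oligo(dT) beads and made into VAHTS v3 libraries, per the labels' protocols. The submitters' processing notes name fastp 0.23.4 and build GRCm39. No aligner, counting program or annotation is given in the sources used here. FPKM values were deposited by the authors as a single table, and each column was matched to a sample by its description (0 unmatched, 0 identical pairs). Whole reads could not be recovered, since of 366 low genes compared between CTX replicates 1 and 2 only 8 shared the commonest ratio, so depth is unknown.

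Values were taken as log2(FPKM + 1) without rescaling. Genes reaching 1 FPKM in 3 or more of 9 libraries were tested in 1 limma 3.58.1 fit of 3 groups in R 4.3.3 (eBayes with trend, 6 residual degrees of freedom), adjusted by Benjamini and Hochberg over all 13338 genes, with a call at an adjusted p under 0.05. The script was tested on simulated data. The members and lists were chosen with earlier results of these data known, so lists carry no test. Fold changes are given for the 6 members with the smallest p in each comparison, for the 2 such genes of each pathway list (some results are not reported here), and levels in every library also for 11 nodes of the pathway. Motifs were searched on both strands. Alternatives were another pseudocount, filter or scaling, fits of 2 groups alone, a replicate block, library weights and left-out libraries. Figures used matplotlib 3.10.9 in Python 3.11.15.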

Additional observations from a re-analysis of the deposited data

How the results depend on the processing

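Under 18 alternatives, 0 members passed an adjusted p of 0.05 in limma in any of the 3 comparisons, and no named member changed the sign of its fold change. Over all genes, the counts called in CTX against NC were 31 with the 2 groups alone, 123 with library weights, 16 without HBOT replicate 2 and CTX replicate 1, and 0 to 9 with 1 library left out, namely 8 without HBOT replicate 2, 9 without HBOT replicate 3 and 1 without NC replicate 1. In HBOT against CTX they were 1 without the filter, 5 with library weights, 2 without both libraries and 0 to 1 with 1 library left out. In HBOT against NC they were 1 without the filter, 181 with library weights and 0 to 3 with 1 library left out. The median log2 fold change of synthesis genes in CTX against NC ran from -0.33 to 0.76 with 1 library left out and was 0.76 without both libraries, and in HBOT against CTX it was -1.34 without both, where that of all members was -0.81. For members in CTX against NC the median changed sign with median-of-ratios scaling (-0.01) and ran from -0.26 to 0.45 with 1 library left out. With replicate number as a replicate block 0 genes were called in each comparison, and 1 member was lower at an unadjusted p under 0.05 in HBOT against CTX, against 3 without it. Deviations of same-numbered libraries from their group means had correlations of -0.29 to 0.16. The labels do not say whether the numbers pair libraries, and these correlations cannot settle it. Insig2 ran from -0.39 to -0.29 in CTX against NC (adjusted p 0.085 to 0.927) and Tmem97 from -0.51 to -0.37 in HBOT against CTX (adjusted p 0.18 to 0.867) over the settings run. Of the genes on the 5 other pathway lists that the text names, Me1 (-1.34, adjusted p 0.0467) and Cyp27a1 (1.03, adjusted p 0.0306) were called in HBOT against NC with library weights. That setting gave HBOT replicate 2 a weight of 0.0998. In HBOT against CTX Rxrb and Erlin2 changed sign, to 0.015 and 0.04 with library weights, to 0.108 and 0.062 without both libraries, and ran from -0.302 to 0.108 and from -0.291 to 0.067 over the settings that leave libraries out. In CTX against NC Rxra stood at -0.006 without CTX replicate 1, alone or with HBOT replicate 2, and ran up to 0.316 with 1 library left out. The causes were not tested. With 3 libraries a group and no read counts, the precision of a member rests on the spread between libraries.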
